A study of Homo sapiens with 24 samples.

Results

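MDA-MB-231 is an established cell line grown from a triple-negative breast cancer, that is, one without the oestrogen receptor, the progesterone receptor or amplified HER2. The comparison described here is of 3 libraries of these cells given YX-2-30, labelled an MDM2 PROTAC, with 3 libraries of the same cells given its solvent, DMSO. These 6 libraries were taken by their titles out of the 24 of the series. All 6 share the line, the medium (DMEM with 10% fetal bovine serum and penicillin with streptomycin), TRIzol extraction of total RNA and the NEBNext Ultra II RNA library kit, and no library of the 6 is labelled as carrying a hairpin or a genetic change. The labels give neither the dose nor the time of treatment. Nothing in them says that the 3 replicates are separate cultures, and p-values then measure only the spread between these samples, which may be technical. For reference, 6 libraries of MDA-MB-231 expressing an MDM2 shRNA or a non-targeting shRNA were used, and 6 of MDA-MB-436, another triple-negative line, given the same PROTAC or DMSO. Each of these groups held 3 libraries. All 60675 genes in the files were members, and 19279 of them passed the filter on low counts and were tested.

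MDM2 is a ubiquitin ligase: it attaches ubiquitin to other proteins and so marks them for the proteasome. It forms a pair with its relative MDM4, and transcription factors are among the proteins it binds, TP73 being one of them. A PROTAC (proteolysis-targeting chimera) holds its target protein and a cellular ubiquitin ligase together, so that the target itself is degraded. Since the degradation is of protein, the transcript of the target need not fall, and its level in RNA sequencing does not check the treatment.

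The 6 libraries held 56724103 to 80912614 counts, and mitochondrial genes took 5.43 to 5.93% of them. The markers fixed for a mesenchymal, basal-like breast line were abundant in all 6 libraries with the exception of SPARC, which had a mean of 0.43 CPM with DMSO (CPM is the count as a share of the library's total, per 1e6 counts, with totals scaled by TMM factors throughout): VIM, the intermediate filament of mesenchymal cells, had a mean of 4591 CPM with DMSO and 2827 with the PROTAC. ESR1, the oestrogen receptor, had means of 0.146 and 0.218 CPM, and PGR had no count. Of the markers of other cells, PTPRC of leukocytes had 4.75 CPM with DMSO and 3.12 with the PROTAC, and PECAM1 of endothelium had 1.06 and 1.19. DCN and FAP of fibroblasts had no count. Other members were higher: the summed endothelial list ran from 224 to 244 CPM with DMSO and from 194 to 212 with the PROTAC. The summed leukocyte list ran from 38.7 to 49.1 CPM with DMSO and from 40.7 to 47.9 with the PROTAC. The summed fibroblast list ran from 18.5 to 22.6 CPM with DMSO and from 34.6 to 40.0 with the PROTAC, nearly all of it COL1A1 and PDGFRB, and its part in the results was not tested.

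The distances between PROTAC libraries and libraries labelled MDM2 shRNA overlapped those among PROTAC libraries. The chi-square of counts per degree of freedom was 38.9 to 43.9 between PROTAC libraries, 37.6 to 62.6 between a PROTAC and an MDM2 shRNA library, and 102.4 to 132.6 between a PROTAC and a DMSO library. DMSO libraries likewise lay 41.4 to 62.5 from the non-targeting shRNA libraries and 42.6 to 53.4 from each other. In direct fits added after these distances were seen, edgeR's quasi-likelihood test called 4 of 19062 genes (0.021%) between PROTAC and MDM2 shRNA libraries and 6 of 19457 (0.0308%) between DMSO and non-targeting shRNA libraries, with 828 and 865 genes at an unadjusted p under 0.05. A hairpin and a small molecule are different manipulations with different controls, and the labels do not say whether the experiments shared cultures. A like response to both and a mix-up of files or labels between the experiments cannot be told apart from these files, and this bears on every value set beside the shRNA comparison. No pair of libraries agreed within sampling noise, so each was counted as 1 sample.

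The PROTAC libraries differed from the DMSO libraries in a large number of genes. By edgeR's quasi-likelihood test with Benjamini-Hochberg adjustment at 0.05, 1995 genes were called higher (10.3% of those tested) and 2141 lower (11.1%), and the groups did not overlap in 7882 (40.9%). Most of these changes were small: the median log2 change was 0.49 among genes called higher and -0.51 among genes called lower. A change of at least 2-fold was called for 286 genes upwards (1.48%) and 490 downwards (2.54%), and a change of at least 4-fold for 44 and 145. Abundant genes moved little, with 23 of 6813 genes of at least 30 CPM called at least 2-fold higher and 57 at least 2-fold lower. Scaled by library totals alone, 2981 genes were called higher and 1597 lower, so that the share of rises among the calls was 65.1% in place of 48.2%, with a median log2 change of 0.08 over all genes in place of -0.004.

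The transcripts of the target and of its partner MDM4 did not pass the test. Of 16 tested genes of the MDM2 network, 1 was called higher and 3 lower (1 and 1 when scaled by totals alone). MDM2 (chromosome 12, 68808176 to 68850686, plus strand, GENCODE 29) had 16.6, 23.9 and 14.9 CPM with DMSO and 19.9, 23.0 and 23.6 with the PROTAC. The groups overlapped, through DMSO replicate 2, and the log2 change was 0.26 ± 0.18 (SE) with an adjusted p of 0.374 in edgeR. Without that library the change was 0.49 with an adjusted p of 0.0466 in edgeR. That fit leaves out the library that stood against the change, and the fits without each other library are not given here. In the libraries labelled MDM2 shRNA, MDM2 was not lower either, with a log2 change of 0.55 ± 0.24 against the non-targeting shRNA (adjusted p = 0.137 in edgeR). Part of the exons of MDM2 overlap those of another annotated gene.

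MDM4, the partner of MDM2, varied widely within the DMSO group. Its values were 59.7, 68.9 and 6.76 CPM with DMSO and 24.4, 10.6 and 7.92 with the PROTAC, and DMSO replicate 3 stood below all 3 PROTAC libraries. The log2 change was -1.65 with an adjusted p of 0.208 in edgeR, and -2.17 with an adjusted p of 0.0348 without that library. Here too only the fit without the library that stood against the change is given. TP73 had 12.4, 11.8 and 11.7 CPM with DMSO and 14.2, 15.3 and 11.7 with the PROTAC, a log2 change of 0.20 (adjusted p = 0.272 in edgeR). TP63, another member of that family, had 4, 16 and 23 counts with DMSO and 0 in each PROTAC library, and was too low to be tested. USP7, a deubiquitinase that acts on MDM2, was called lower by 0.29 on the log2 scale, from 173, 167 and 174 to 144, 136 and 139 CPM.

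CDKN1A, which encodes the inhibitor p21 of cyclin-dependent kinases, rose 2.56-fold (95% interval 2.34 to 2.80). Its values were 83.5, 74.8 and 79.6 CPM with DMSO and 208, 197 and 203 CPM with the PROTAC. The groups were far apart, and the log2 change was 1.35 ± 0.054 (adjusted p = 5.31e-05 in edgeR). CCND1, or cyclin D1, which drives cells into S phase, went the other way: 1273, 1246 and 1291 CPM became 711, 701 and 693 CPM, a log2 change of -0.86 ± 0.03. Of 20 tested genes of the D cyclins, their kinases, the RB family and CDK inhibitors, 4 rose and 3 fell. CDKN3, a phosphatase of cyclin-dependent kinases, fell by 0.70 on the log2 scale, and E2F8, a repressor of the E2F family, rose by 0.77.

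Genes of mitosis fell. Of 37 tested genes of the G2 and M phases, 21 were called lower and none higher, with a median log2 change of -0.30; scaled by totals alone, 20 were lower and 1 higher. CDC20, the activator of the anaphase-promoting complex, had 544, 507 and 534 CPM with DMSO and 225, 223 and 230 with the PROTAC, a log2 change of -1.23 ± 0.04 (adjusted p = 3.71e-05 in edgeR). CCNB1, or cyclin B1, went from 345, 340 and 335 to 168, 153 and 170 CPM, a log2 change of -1.06. DLGAP5, a spindle protein, had 274, 280 and 274 CPM with DMSO and 163, 154 and 152 with the PROTAC. PLK1, a kinase of mitotic entry, fell by 1.32 on the log2 scale. Not every gene of the list followed: CDK1, the kinase that cyclin B1 activates, had a log2 change of 0.26 (adjusted p = 0.131 in edgeR), and TOP2A, which untangles chromosomes, one of -0.12 (adjusted p = 0.0941). In bulk RNA, fewer cells in a phase and less RNA per cell cannot be told apart.

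Genes of DNA synthesis and repair mostly went up over the same libraries. Of 41 replication genes 17 were called higher and 3 lower, with a median log2 change of 0.23, and of 30 genes of homologous recombination, the Fanconi pathway and checkpoints 16 were higher and 3 lower, with a median of 0.36. RRM2, the subunit that sets the activity of ribonucleotide reductase, had 211, 201 and 196 CPM with DMSO and 471, 464 and 453 with the PROTAC. CCNE1, or cyclin E1, rose from 6.72, 7.92 and 7.12 to 16.2, 17.2 and 16.9 CPM, and CDC6, a loader of the replicative helicase, rose by 0.73 on the log2 scale. Not every replication gene rose: MCM5, a subunit of that helicase, fell from 148, 142 and 147 to 80.4, 80.3 and 81.3 CPM. PCNA, the sliding clamp, had a log2 change of -0.05 (adjusted p = 0.389 in edgeR). Among repair genes EXO1, an exonuclease, rose by 0.91, BLM, a helicase of recombination, by 0.68, and CLSPN, an adaptor of the ATR checkpoint, by 0.66 on the log2 scale.

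Transcripts of replication-dependent histones fell. Only 36 of the 58 listed genes passed the filter; of these 19 were called lower and none higher, and the median log2 change was -0.98, against -0.004 over all genes tested (over 49 members in the model with MDA-MB-436 it was -0.75). HIST1H2AC had 91.7, 96.7 and 98.9 CPM with DMSO and 20.1, 21.5 and 18.6 with the PROTAC, a log2 change of -2.26 ± 0.073 (adjusted p = 3.71e-05 in edgeR). HIST1H2BK fell from 235, 214 and 219 to 67.6, 68.3 and 74.2 CPM, and HIST1H1C, a linker histone, from 208, 199 and 221 to 70.6, 71.3 and 76.2. Most of these transcripts end in a stem-loop and not in a poly(A) tail, and the labels do not state how RNA was selected for the libraries. The genes are near copies of each other, so that reads may be split between them.

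Histones with polyadenylated transcripts fell in part as well, with 7 of 12 called lower and 1 higher (4 and 2 when scaled by totals alone). The clearest was H1F0, the replacement linker histone of cells that stop dividing, at 512, 508 and 520 CPM with DMSO and 143, 137 and 142 with the PROTAC. Its log2 change of -1.87 ± 0.036 shared the smallest adjusted p of the comparison (7.71e-06 in edgeR). H2AFX, the variant phosphorylated at DNA breaks, fell by 0.48 and CENPA, the histone of centromeres, by 0.85 on the log2 scale.

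Genes of cell death moved in both directions. Of 22 tested pro-apoptotic genes, caspases and adaptors 9 rose and 3 fell, with a median log2 change of 0.30 (11 and 1 when scaled by totals alone). Of 10 survival genes 1 rose, 4 fell and 5 were not called, with a median of -0.06, and the difference between the lists was not tested. CASP10, an initiator caspase, had 2.9, 3.28 and 2.27 CPM with DMSO and 8.76, 9.07 and 9.64 with the PROTAC. CASP8, which acts below death receptors, rose less, by 0.55 on the log2 scale. BCL2L1, which encodes the survival protein BCL-xL, fell from 617, 551 and 576 to 415, 395 and 394 CPM. BIRC5, or survivin, also a gene of mitosis, fell by 0.58 on the log2 scale. BIRC3, a target of NF-kB, was the survival gene that rose, from 29.3, 30.7 and 21.3 to 56.7, 53.9 and 49.3 CPM.

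Genes of the interferon response mostly rose. Of 40 tested, 24 were called higher, none lower and 16 neither, with a median log2 change of 0.48 and a range of -0.3 to 1.48. Scaled by totals alone, 28 were called higher and none lower. The listed genes MX2, RSAD2 and CMPK2 had at most 16 counts in any of the 6 libraries and were not tested. IFIT3, which binds viral RNA with its relatives, had 40.3, 41.4 and 41.4 CPM with DMSO and 68.7, 67.9 and 67.8 with the PROTAC, a log2 change of 0.73 ± 0.049 (adjusted p = 0.000218 in edgeR). OAS3, which makes the messenger that activates RNase L, rose from 23.2, 23.2 and 23.1 to 38.7, 41.1 and 42.4 CPM. IFIT2 rose by 1.43 and HERC5, the ligase that attaches ISG15, by 0.70 on the log2 scale. The genes of antigen presentation by MHC class I were called higher in 6 of 17 cases and lower in 1. TAP1, a subunit of the peptide transporter, was among them, at 38.9, 38.6 and 39.5 CPM with DMSO and 74.9, 76.7 and 76.8 with the PROTAC, and HLA-E rose by 0.44 on the log2 scale.

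Promoters from lists whose called members all moved 1 way are shown for a sight of what their members share beyond their counts. They are the 250 bases before and 50 after the gene start, from RefSeq on GRCh38.p14. The core of the interferon-stimulated response element, GAAA, any 2 bases and GAAA again on either strand, occurred in 19 of the 32 interferon promoters available (59.4%). Among all 27305 promoters it occurred in 3.65%, and it was in none of 31 promoters of mitotic genes or 36 of replication genes. It was also in 4 of 28 promoters of NF-kB targets and secreted factors (14.3%) and in 5 of 51 of replication-dependent histones (9.8%), a list that fell. The cell cycle homology region, TTTGAA on either strand, occurred in 19 of the 31 mitotic promoters (61.3%), in 15.4% of all promoters, in 18 of 51 promoters of replication-dependent histones (35.3%), in 1 of 36 of replication genes (2.78%) and in 3 of the 32 interferon promoters. CCAAT on either strand was in 24 of the 31 mitotic promoters (77.4%), in 43 of 51 promoters of replication-dependent histones (84.3%), in 20 of 36 promoters of replication genes (55.6%), a list with more rises than falls, and in 35.7% of all. These matches are a description of letters in a window. The 2 interferon genes and 2 mitotic genes below were among the called members with the smallest p that held their motif, in capitals; the interferon promoters lie at chr10:89327747-89328046 (IFIT3) and chr12:112938224-112938523 (OAS3), and the mitotic ones at chr1:43358731-43359030 (CDC20) and chr15:59104896-59105195 (CCNB2), all on the plus strand and written 5′ to 3′.
IFIT3: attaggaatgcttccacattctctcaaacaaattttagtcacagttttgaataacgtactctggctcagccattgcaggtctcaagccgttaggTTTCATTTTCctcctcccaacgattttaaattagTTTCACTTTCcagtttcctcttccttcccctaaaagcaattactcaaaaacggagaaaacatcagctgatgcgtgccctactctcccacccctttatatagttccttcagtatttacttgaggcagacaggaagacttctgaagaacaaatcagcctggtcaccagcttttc
OAS3: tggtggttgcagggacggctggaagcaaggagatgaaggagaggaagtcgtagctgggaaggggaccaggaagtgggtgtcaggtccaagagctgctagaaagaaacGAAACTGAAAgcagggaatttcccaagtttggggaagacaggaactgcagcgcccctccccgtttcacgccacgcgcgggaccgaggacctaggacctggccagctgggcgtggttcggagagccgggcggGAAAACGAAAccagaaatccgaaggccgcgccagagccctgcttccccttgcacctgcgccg
CDC20: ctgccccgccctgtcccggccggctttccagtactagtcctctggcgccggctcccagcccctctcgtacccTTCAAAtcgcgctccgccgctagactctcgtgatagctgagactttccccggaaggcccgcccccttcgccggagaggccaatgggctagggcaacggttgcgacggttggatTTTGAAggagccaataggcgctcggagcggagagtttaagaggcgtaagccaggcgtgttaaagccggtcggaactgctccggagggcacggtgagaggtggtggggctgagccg
CCNB2: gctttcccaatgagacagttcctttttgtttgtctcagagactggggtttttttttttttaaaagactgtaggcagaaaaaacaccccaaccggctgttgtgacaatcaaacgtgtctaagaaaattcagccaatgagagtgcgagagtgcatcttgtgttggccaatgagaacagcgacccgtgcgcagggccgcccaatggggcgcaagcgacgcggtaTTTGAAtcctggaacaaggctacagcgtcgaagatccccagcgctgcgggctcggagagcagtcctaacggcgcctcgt
In IFIT3 the 2 matches began 156 and 122 bases before the gene start, and in OAS3 143 and 12 bases before it. The matches of CDC20 began 178 and 65 bases before the start, and the single match of CCNB2 began 29 bases before it. CCNB2, cyclin B2, had 98.1, 92.2 and 98.9 CPM with DMSO and 62.9, 57.8 and 62.3 with the PROTAC.

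**Figure D1:**
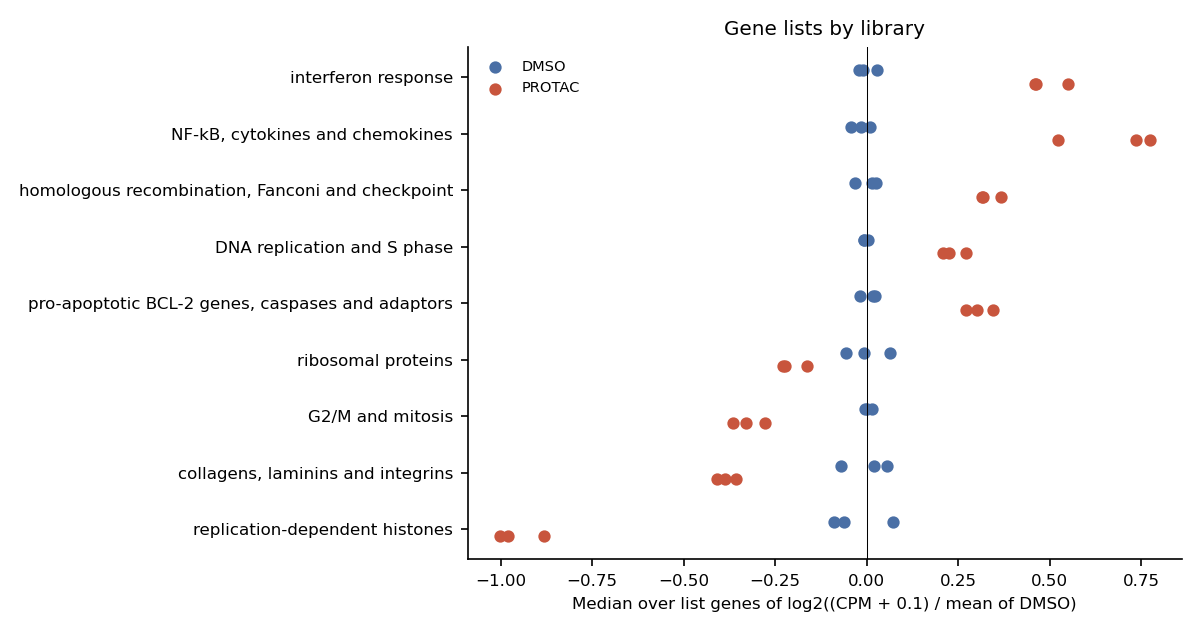
Median over the tested genes of 9 lists of log2((CPM + 0.1) / mean of the DMSO libraries), by library, with DMSO in blue and PROTAC in red. The PROTAC libraries lie at 0.46 to 0.55 for the interferon list, at -0.28 to -0.36 for mitosis and at -0.88 to -1.0 for replication-dependent histones.

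Of 29 tested NF-kB targets and secreted factors 14 were called higher and 2 lower, with a median log2 change of 0.71. The median depends on which members pass the filter on low counts: in the models of 12 libraries it was 0.54 over 31 genes and 0.36 over 37. IL11, a cytokine of the IL-6 family, had 139, 132 and 138 CPM with DMSO and 347, 350 and 363 with the PROTAC, a log2 change of 1.37 ± 0.041 (adjusted p = 2.77e-05 in edgeR). TNFAIP3, which encodes the NF-kB inhibitor A20, rose from 5.25, 5.55 and 4.65 to 14.5, 15.4 and 16.3 CPM. NFKB2, a subunit of the factor, rose by 0.83 and ICAM1, an adhesion molecule under its control, by 1.12 on the log2 scale. The 2 members that fell, chosen after their values were seen, were CSF1, a macrophage growth factor, by 1.01 and LIF, a cytokine related to IL11, by 0.57 on the log2 scale.

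Among the largest rises were further receptors, ligands and transcription factors. MAFA, a leucine zipper transcription factor, rose 9.84-fold from a low level, with 0.301, 0.228 and 0.396 CPM with DMSO and 2.57, 3.96 and 2.72 with the PROTAC. IL7R, a cytokine receptor, had 4.96, 5.04 and 5.19 CPM with DMSO and 22.7, 23.2 and 21.0 with the PROTAC, a log2 change of 2.14 ± 0.085 (adjusted p = 5.31e-05 in edgeR). SNAI1, a repressor of epithelial genes, rose from 0.956, 1.02 and 1.24 to 5.24, 4.45 and 4.93 CPM. Groups that do not overlap were a condition for naming these genes.

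Of the other rises above 1 CPM, DLL4, a Notch ligand, rose by 2.55, HES7, a repressor of the HES family, by 2.23, FAM83H by 2.03 and IL24, a secreted cytokine, by 1.99 on the log2 scale. CA2, a carbonic anhydrase, rose by 2.57, NLRP10 by 1.96, MISP, an actin-bundling protein of the mitotic cortex, by 1.92 and TMEM236 by 1.90. The call of NLRP10 was lost without DMSO replicate 1 or 3 or PROTAC replicate 1 or 2. Among abundant genes without shared exons the largest rises were in ZDHHC20, a palmitoyl transferase, ADM, the vasodilator adrenomedullin, and DUSP1, a phosphatase of MAP kinases. ADM had 23.7, 18.8 and 20.4 CPM with DMSO and 72.6, 65.5 and 70.6 with the PROTAC. DUSP1 had 41.0, 46.6 and 42.4 CPM with DMSO and 138, 143 and 148 with the PROTAC. Smaller rises were those of ERI1, an exonuclease that trims histone mRNA ends, by 1.66, CPA4, a carboxypeptidase, by 1.55, ARID5B by 1.25, ECM1 by 1.05, CSRP2 by 1.01 and RASEF by 0.99. ZDHHC20 went from 13.5, 16.8 and 14.2 to 106, 110 and 90.4 CPM.

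**Figure D2:**
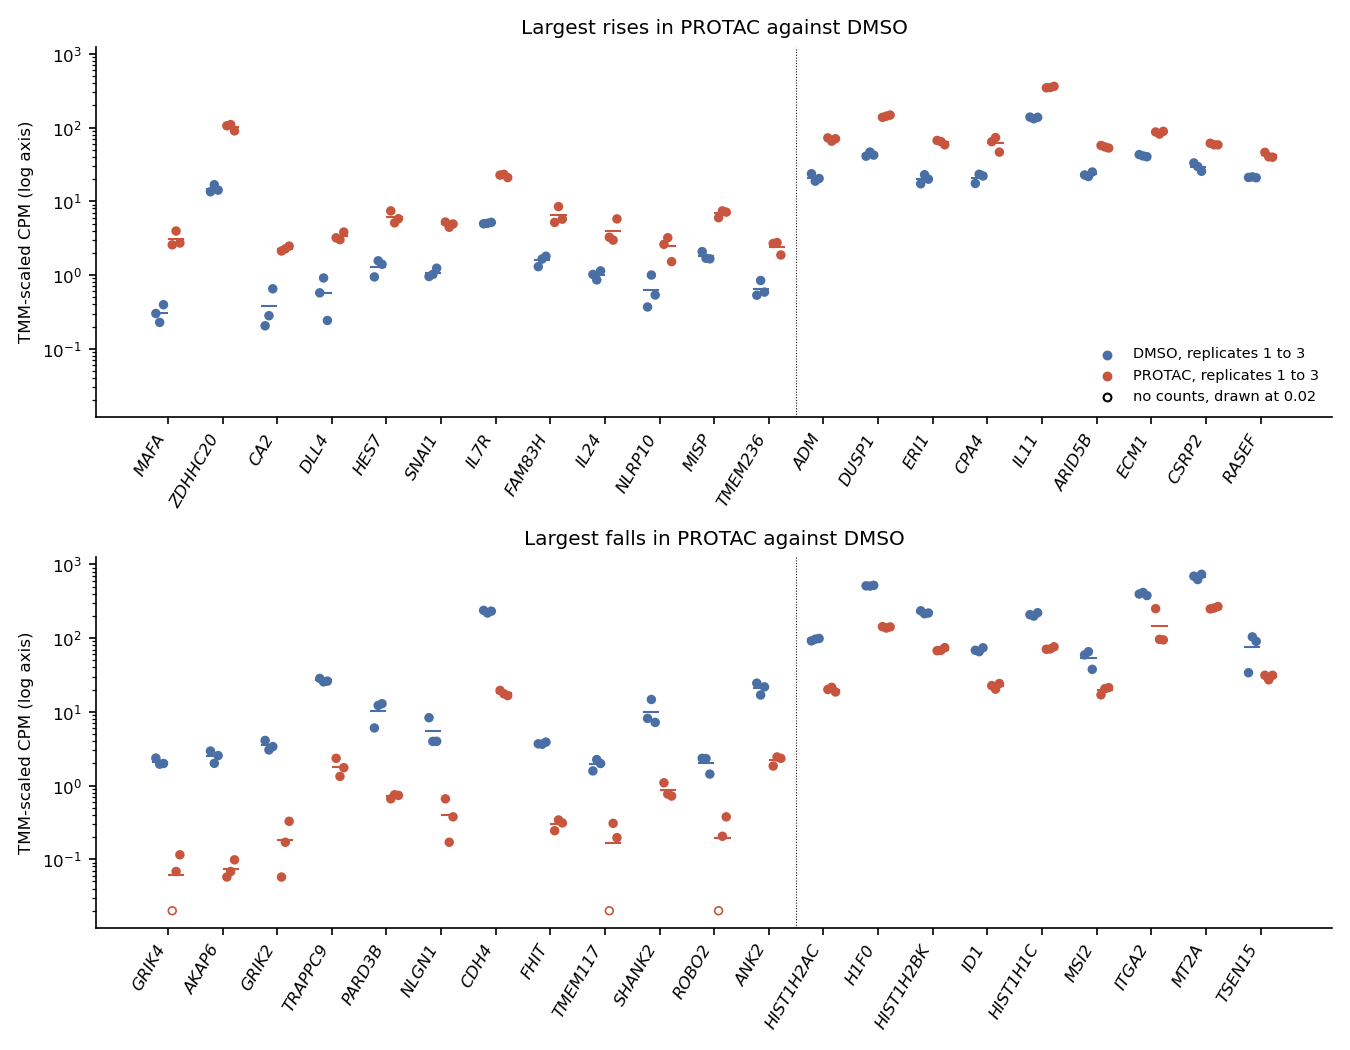
TMM-scaled CPM (log axis) in each of the 3 DMSO libraries (blue) and the 3 PROTAC libraries (red) for the largest rises and falls. The ranking is among called protein-coding genes that share no exon with another gene and whose groups do not overlap. Bars are group means, and genes right of the dotted line have a mean of at least 30 CPM. CDH4 lies at 219 to 238 CPM with DMSO and at 16.6 to 19.5 with the PROTAC, and ITGA2 has 1 PROTAC library at 251 CPM above the other two.

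Among called protein-coding genes that share no exon with another gene and whose groups do not overlap, the 12 largest falls above 1 CPM were taken. They had in common that they lie in very long genes, of 477 to 1743 kb from first to last exon. Genes with shared exons were left out of this ranking, among them FRY, of 452 kb, with a log2 change of -4.45. CDH4, an adhesion molecule of the cadherin family (chromosome 20, 61252426 to 61940617, plus strand), had 238, 219 and 232 CPM with DMSO and 19.5, 17.6 and 16.6 with the PROTAC. This was a 12.8-fold fall, with a log2 change of -3.68 ± 0.076 and an adjusted p of 7.71e-06 in edgeR. TRAPPC9, a subunit of a vesicle tethering complex, went from 28.4, 25.5 and 26.1 to 2.34, 1.33 and 1.75 CPM, and ANK2, a membrane adaptor, from 24.5, 16.9 and 21.8 to 1.84, 2.44 and 2.34. FHIT, a diadenosine hydrolase that spans a fragile site, had 3.68, 3.63 and 3.88 CPM with DMSO and 0.244, 0.341 and 0.311 with the PROTAC.

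GRIK4 and GRIK2, subunits of kainate receptors, changed by -5.11 and -4.25, AKAP6, an anchor of protein kinase A, by -5.04, PARD3B, a polarity protein, by -3.85, NLGN1, a synaptic adhesion protein, by -3.73 and SHANK2, a synaptic scaffold, by -3.54 on the log2 scale. TMEM117 and ROBO2, an axon guidance receptor, changed by -3.55 and -3.40, with adjusted p of 0.0256 and 0.0349 in edgeR. The call of TMEM117 was lost without any 1 of the DMSO libraries or PROTAC replicate 3, and that of ROBO2 without any 1 of the DMSO libraries or PROTAC replicate 2. All 12 have another gene on the opposite strand within their span, and whether counting used strand is not given in the sources used here.

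Over all protein-coding genes the change went with genomic span, as GENCODE 29 gives it. The median log2 change was 0.02 in 2733 genes under 10 kb, 0.06 in 3912 of 10 to 30 kb, 0.04 in 4522 of 30 to 100 kb, -0.08 in 2190 of 100 to 300 kb and -0.73 in 542 over 300 kb. Of the last class 290 genes were called lower (53.5%) and 25 higher (4.61%), where 14% and 13.3% of all 13899 protein-coding genes were. Each PROTAC library showed it alone, with medians of -0.68, -0.66 and -0.73 against the mean of DMSO. Within the class, the median was -0.61 from 300 to 500 kb, -1.15 from 500 to 1000 kb and -0.75 in 39 genes over 1000 kb, so that the fall was not larger in the longest genes.

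The fall was present at each level of expression. Among genes over 300 kb with a mean of at least 30 CPM, 75 of 145 were called lower and the median was -0.32, and from 1 to 30 CPM 187 of 301 were lower, with a median of -0.99. The 542 were those of 797 in the annotation that passed the filter, and a gene that passed through its DMSO libraries alone had to differ; this bears least on the abundant class. Of the 542, 284 shared no exon with another gene and had a median of -0.78. Counted from the calls, the 406 protein-coding genes called at least 2-fold lower had a median span of 261 kb and 184 of them exceeded 300 kb (45.3%). The 241 called at least 2-fold higher had a median span of 16.9 kb, 3 of them over 300 kb (1.24%), where the median over all was 32.4 kb.

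**Figure D3:**
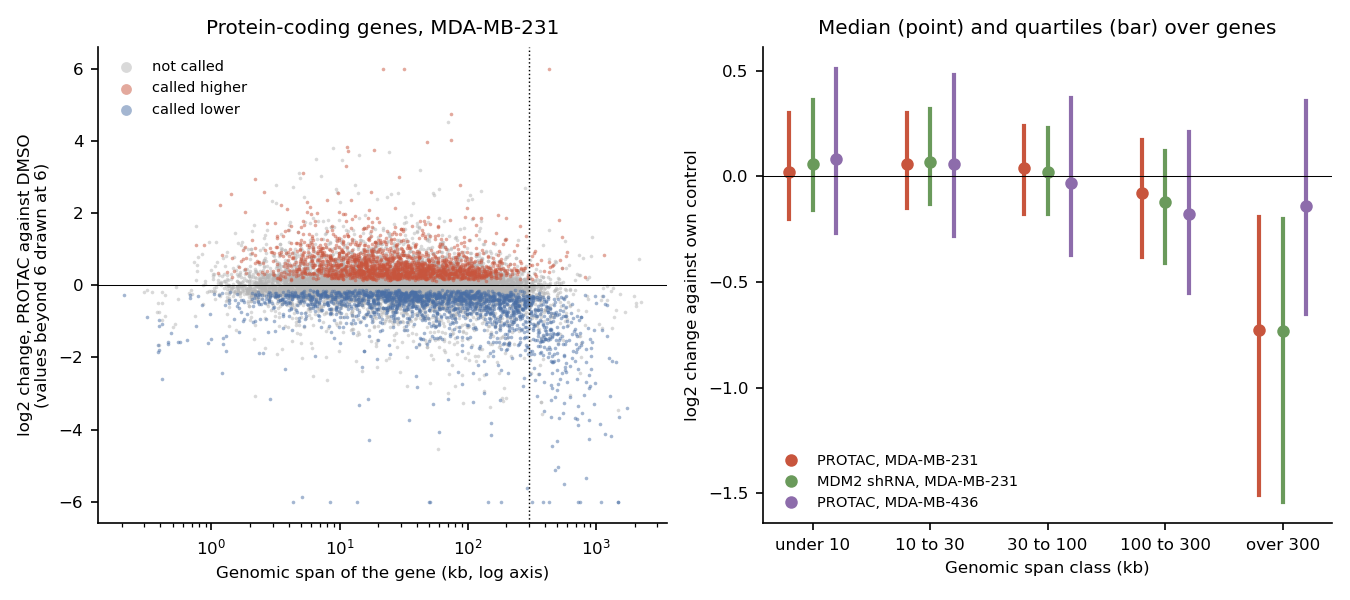
Left, log2 change of each protein-coding gene against its genomic span (kb, log axis), with the dotted line at 300 kb; right, median and quartiles over genes by span class in the PROTAC and shRNA comparisons of MDA-MB-231 and the PROTAC comparison of MDA-MB-436. The median of the class over 300 kb is -0.73 in the PROTAC comparison of MDA-MB-231, and the point for MDA-MB-436 lies near the other classes of that line.

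Some long genes went against the rest. RELN, a secreted matrix glycoprotein of 518 kb, had a mean of 2.19 CPM with DMSO and 7.62 with the PROTAC, a log2 change of 1.80 (adjusted p = 0.000764 in edgeR). ADAMTS6, a metalloproteinase of 333 kb, rose by 0.94 and CREB5, a transcription factor of 527 kb, by 0.69 on the log2 scale. These names were chosen after their values were seen. POLR2A, the large subunit of the RNA polymerase that transcribes these genes, rose from 362, 353 and 326 to 525, 534 and 533 CPM, and of 34 tested elongation factors and topoisomerases 9 rose and 2 fell (12 and 1 when scaled by totals alone). The share of counts in genes without introns was 7.99 to 8.58% with DMSO and 7.91 to 7.99% with the PROTAC, and its part in the fall of long genes was not tested.

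Genes of the matrix and its receptors fell. Of 33 tested collagens, laminins and integrins 20 were called lower and 3 higher, with a median log2 change of -0.39. COL13A1, a membrane collagen, had 348, 324 and 325 CPM with DMSO and 142, 145 and 165 with the PROTAC. COL5A1, a fibrillar collagen, fell from 120, 110 and 115 to 51.7, 52.8 and 55.0 CPM and COL6A3 by 2.75 on the log2 scale, while COL1A1 rose from 18.0, 14.2 and 17.4 to 27.1, 30.2 and 29.6 CPM. ITGA2, a collagen receptor subunit, had 396, 416 and 378 CPM with DMSO and 251, 96.1 and 94.7 with the PROTAC. Replicate 1 of the PROTAC stood apart in that gene, and its adjusted p of 0.0395 in edgeR became 0.0876 to 0.104 without any 1 of the other 5 libraries, and 0.000259 without that one.

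Markers of the line were lower too, and proteases moved both ways. Of the 10 basal-like markers 8 were called lower and none higher. VIM fell from 4616, 4547 and 4609 to 2752, 2710 and 3020 CPM, AXL, a receptor kinase, from 2017, 1954 and 1997 to 1228, 1223 and 1209, and FOSL1, an AP-1 subunit, from 326, 384 and 324 to 142, 137 and 139. MMP14, a membrane metalloproteinase, fell by 0.83 and TIMP3, an inhibitor of such enzymes, by 0.88 on the log2 scale, while MMP1, the interstitial collagenase, rose from 146, 151 and 150 to 302, 294 and 289 CPM. Of 18 tested metalloproteinases, plasminogen activators and inhibitors 5 rose and 5 fell. Of 26 factors of the mesenchymal and epithelial states 4 rose and 5 fell, with SNAI1 among the rises and, chosen after its values were seen, ZEB1, another repressor of epithelial genes, among the falls, from 105, 108 and 105 to 27.7, 47.5 and 29.3 CPM.

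Signalling genes moved in both directions. Of 38 receptor kinases, ligands and feedback genes 8 rose and 15 fell, with EPHB2, an ephrin receptor, lower by 1.66 and IGFBP4, which binds insulin-like growth factors, lower by 0.75 on the log2 scale. Of 26 Notch genes 6 rose and 8 fell, and 8 rose and 6 fell when scaled by totals alone. Beside DLL4, JAG1, another ligand, had a log2 change of -0.44 and LFNG, which modifies the receptor, of -0.75. ID1, an inhibitor of helix-loop-helix factors and a target of BMP, had 68.4, 65.5 and 74.0 CPM with DMSO and 22.7, 20.3 and 24.2 with the PROTAC, and ID2 rose by 2.30 on the log2 scale. Of the 21 tested ID and BMP genes 3 rose (14.3%) and 5 fell (23.8%). Of 32 targets of TGF-beta and YAP 6 rose and 9 fell, with PMEPA1, a feedback inhibitor of TGF-beta, lower by 1.48 and ANKRD1, a target of YAP, higher by 0.53. The immediate-early list had 9 rises and 8 falls in 36, with JUNB, an AP-1 subunit, higher by 1.06 and DUSP4, a MAP kinase phosphatase, lower by 0.63.

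Protein synthesis, folding and metabolism were lower in part. Of 60 tested ribosomal protein genes 32 fell and none rose, by little: the median log2 change was -0.19, and the count was 20 when scaled by totals alone. RPS12 went from 648, 607 and 663 to 503, 502 and 523 CPM. Of 27 endoplasmic reticulum genes 9 fell and 1 rose. HSPA5, the chief chaperone there, fell from 1002, 979 and 979 to 621, 590 and 601 CPM. The one that rose, TXNDC5, shares exons with the readthrough gene BLOC1S5-TXNDC5, and its log2 change was 2.99 with the PROTAC and -0.93 (adjusted p = 0.439 in edgeR) with the MDM2 shRNA.

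Of 33 ATF4 targets and tRNA charging genes 13 fell and 1 rose (8 and 2 when scaled by totals alone), with ASNS, asparagine synthetase, lower by 0.89 and SLC7A5, an amino acid transporter, by 0.62 on the log2 scale. Of 34 genes of glycolysis and hypoxia 13 fell and 1 rose (10 and 2 when scaled by totals alone): ENO1, enolase, fell by 0.40 and SLC2A1, a glucose transporter, by 0.66, and ADM was the one that rose. Of 26 sterol genes 8 fell and 3 rose; scaled by totals alone 6 fell and 7 rose. IDI1, an isomerase of the pathway, was higher by 0.56 on the log2 scale. Of the largest falls in abundant genes outside these lists, MSI2, an RNA-binding protein, went from 59.2, 65.4 and 37.7 to 17.0, 20.6 and 21.3 CPM. The MSI2 gene spans 429 kb and so is in the class over 300 kb described above. TSEN15, a subunit of the tRNA splicing endonuclease, had 33.9, 104 and 90.4 CPM with DMSO and 31.3, 27.2 and 31.3 with the PROTAC. Its adjusted p of 0.0477 in edgeR was lost without any 1 library other than DMSO replicate 1, which lay near the PROTAC libraries. MT2A, a metallothionein, had 692, 623 and 734 CPM with DMSO and 249, 256 and 268 with the PROTAC.

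The called genes of the mitochondrial genome were split by kind of transcript. Of its 15 tested genes 6 fell, 2 rose and 7 were not called. Both rises were ribosomal RNAs: MT-RNR1 went from 1277, 1171 and 1435 to 1938, 1786 and 1868 CPM and MT-RNR2 rose by 0.31 on the log2 scale. MT-ND4, a subunit of complex I, fell from 6650, 6049 and 6470 to 4870, 4894 and 4716 CPM. The groups did not overlap in any of these named genes, nor in 40.9% of all genes tested.

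**Figure D4:**
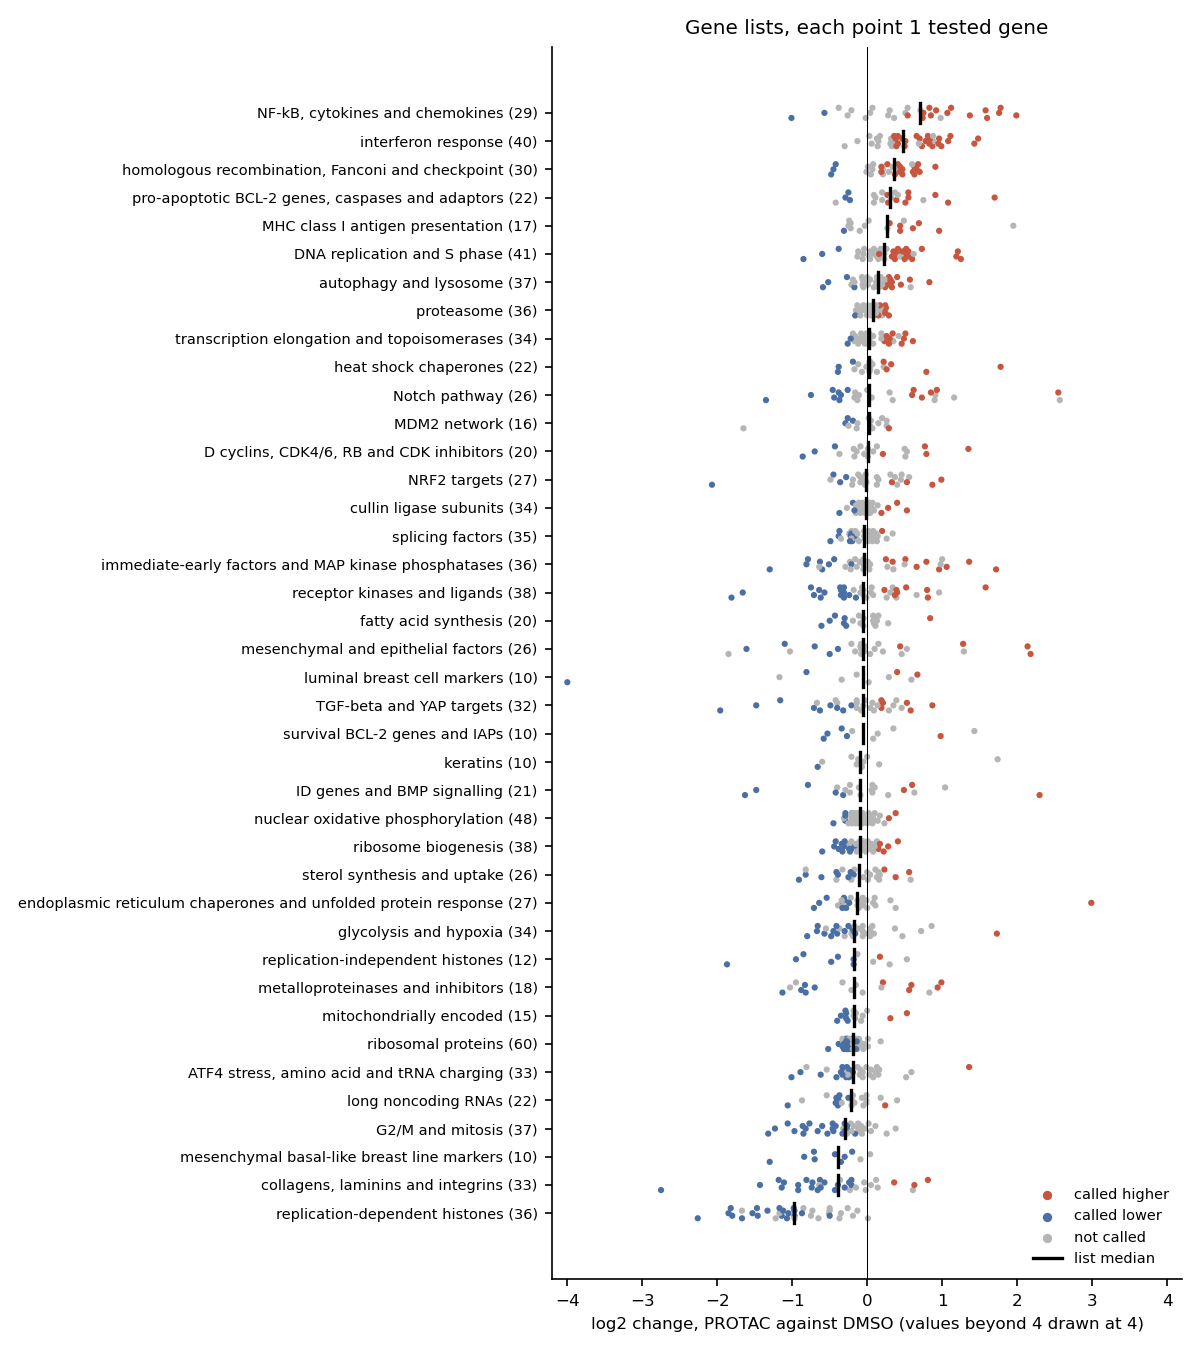
Log2 change of each tested gene (point) in the lists with at least 10 tested genes, with list medians as black bars and the number tested in brackets; red is called higher, blue called lower and grey not called. The medians run from -0.98 for replication-dependent histones to 0.71 for NF-kB targets and secreted factors, each over the genes that passed the filter.

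The remaining lists are given by their counts, to be read against 10.3% of all tested genes called higher and 11.1% lower. Of 34 cullin ligase subunits 4 rose and 3 fell (6 and 1 when scaled by totals alone); CRBN and VHL, the substrate receptors that many PROTACs use, had log2 changes of 0.01 (adjusted p = 0.97 in edgeR) and -0.09 (adjusted p = 0.547). The proteasome list had 7 rises and 1 fall in 36 with a median of 0.08 (15 and none when scaled by totals alone), heat shock chaperones 5 and 3 in 22, NRF2 targets 4 and 4 in 27 (7 and 3 by totals), autophagy and lysosome 11 and 4 in 37 (15 and 2), and nuclear genes of oxidative phosphorylation 2 and 5 in 48 (3 and 2). Ribosome biogenesis had 5 rises and 13 falls in 38 (7 and 8 by totals), splicing factors 1 and 8 in 35 (6 and 4, so that the balance turned) and fatty acid synthesis 1 and 6 in 20 (4 and 6). Listed long noncoding RNAs had 1 rise and 7 falls in 22 (2 and 7), keratins none and 1 in 10 and luminal markers 2 and 2 in 10.

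To see where the PROTAC differed from the MDM2 shRNA in the same line, the difference of their effects was tested in 1 model of 12 libraries. It was called for 1 gene of 20675 (0.00484%) by edgeR, with 977 genes (4.73%) at an unadjusted p under 0.05 and 38 genes called by DESeq2. That gene was MAFF, a small leucine zipper factor, at 22.8, 18.0 and 18.3 CPM with DMSO and 31.4, 30.3 and 35.1 with the PROTAC. Its log2 change was 0.71 with the PROTAC and 2.17 with the shRNA, a difference of -1.46 ± 0.14 (adjusted p = 0.0117 in edgeR). Without PROTAC replicate 2 no gene was called, and 6 were called without PROTAC replicate 1. Over the 4136 genes that the PROTAC changed, the median size of the difference was 0.099 and the median half-width of its 95% interval 0.26 on the log2 scale. That interval is for 1 gene without adjustment, and a call needed an adjusted p under 0.05 over 20675 genes. Differences larger than 0.26 could therefore go uncalled, and the lack of calls does not show that the effects were equal. In the libraries labelled MDM2 shRNA, 2281 of the 19279 genes tested in both comparisons were called higher and 2376 lower. Of the genes called higher with the PROTAC, 74.3% were also called higher in the libraries labelled MDM2 shRNA, which is 65.0% of the latter's, and of those called lower 77.3%, which is 69.6% of the latter's. If files or labels were mixed between the experiments, this overlap would not compare 2 agents. The genes over 300 kb had medians of -0.75 and -0.74 in that model. ZDHHC20 had a log2 change of 0.00 with the shRNA, and its difference of 2.79 ± 1.00 was not called (adjusted p = 0.98 in edgeR).

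In MDA-MB-436 the same agent gave a different profile. The PROTAC changed 6308 of 22708 genes there (27.8%), and the difference between the lines was called for 4242 (18.7%), 2027 of them more positive in MDA-MB-231 (8.93%) and 2215 more negative (9.75%). Of the genes raised in MDA-MB-231, 32.3% were raised and 15.2% lowered in MDA-MB-436, and of the genes lowered, 35.7% were lowered and 11.8% raised. These shares are to be read against all 19235 genes tested in both lines, of which 2994 were raised and 3029 lowered in MDA-MB-436. The shared genes were 21.5% and 25.3% of those raised and lowered in MDA-MB-436. The fall of long genes was one of the differences: over 300 kb the median was -0.73 in MDA-MB-231, against -0.13 for MDA-MB-436, and the difference was called negative for 201 of 666 genes (30.2%) and positive for 42. CDH4 changed by -0.57 in MDA-MB-436, a difference of -3.10 ± 0.13 (adjusted p = 3.56e-07 in edgeR).

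The histones differed in the same way. The difference was called negative for 12 of 49 replication-dependent histones and positive for none, and their median was -0.75 in MDA-MB-231, against 0.19 for MDA-MB-436. H1F0 rose there by 1.35, a difference of -3.21 (adjusted p = 2.98e-07 in edgeR). The interferon list had 14 differences positive and 2 negative in 43, with medians of 0.42 and 0.09. SNAI1, IL7R and ADM had log2 changes of 0.01, -0.52 and -0.49 in MDA-MB-436, with differences of 2.17, 2.67 and 2.23 that were all called. Other lists moved further in MDA-MB-436: heat shock chaperones had 17 positive differences and none negative in 22, with a median of -0.86 there and 0.04 in MDA-MB-231, and replication genes had 21 negative and 3 positive in 41, with medians of 0.65 and 0.23. CDKN1A rose in both lines, by 2.63 in MDA-MB-436, and the difference of -1.27 ± 0.22 was called (adjusted p = 0.00233 in edgeR). Mitosis genes fell in both, with 9 differences positive and 5 negative in 37.

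**Figure D5:**
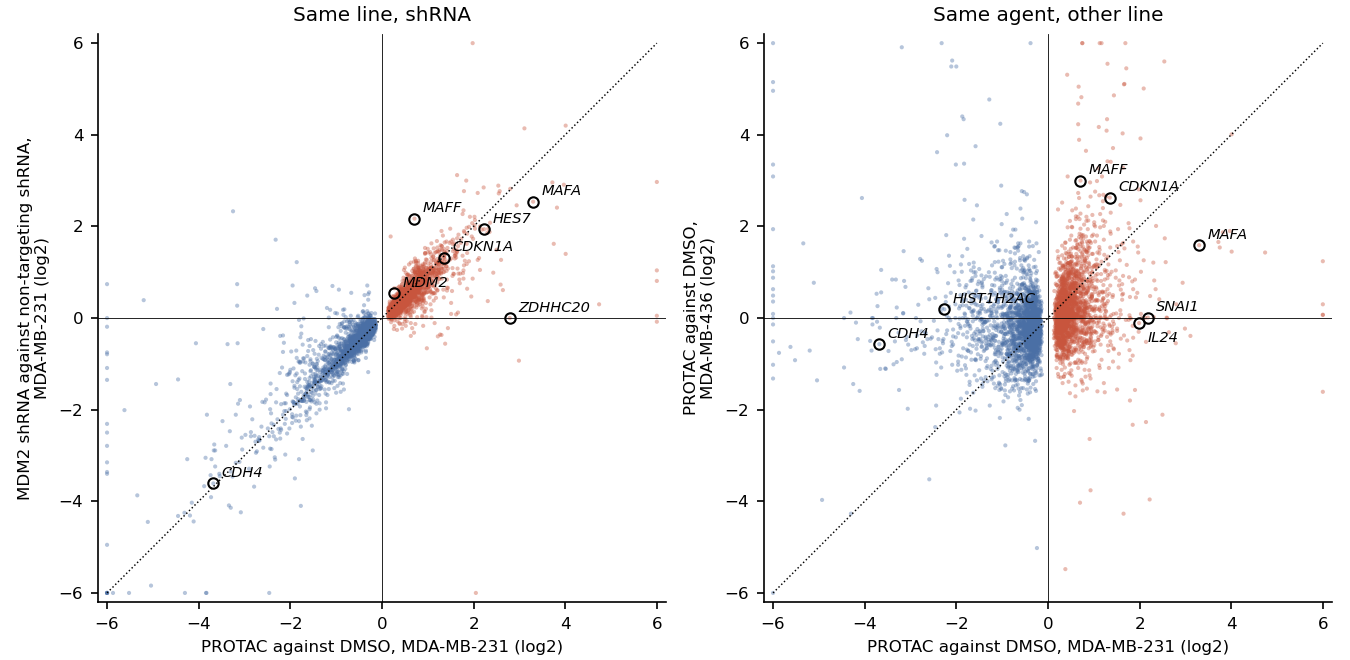
Log2 change of each gene called in the PROTAC comparison of MDA-MB-231 (x axis) against its log2 change with the MDM2 shRNA in the same line (left) and with the PROTAC in MDA-MB-436 (right); red is called higher, blue called lower, the dotted line marks equal change, and values beyond 6 are drawn at 6. Points follow the line on the left, where MAFF lies at 0.71 and 2.17, and scatter widely on the right, where CDKN1A lies at 1.35 and 2.63.

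Several of the genes above share exons with another annotated gene, so that counting could have split or added reads: MDM2, TP73, CDKN1A, CCND1, PLK1, CENPA, RRM2, CLSPN, E2F8, BCL2L1, IFIT2, TAP1, TNFAIP3, ICAM1, LIF, VIM, AXL, MMP1, EPHB2, JAG1, ID2, PMEPA1, JUNB, ASNS, SLC7A5, ENO1, SLC2A1, IDI1, ZEB1, CRBN, MT-ND4, ESR1, SPARC and TXNDC5. Without all genes with such overlaps, 1182 genes were called higher and 1188 lower.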

How the data were processed

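RNA sequencing of the 2 breast cancer lines was deposited as 1 table per library of whole-number read counts per Ensembl gene, not normalized by the authors as far as the values show. The submitters' processing notes name cutadapt 2.4, HISAT2, StringTie, edgeR and GRCh38, with no role. The counting step, its use of strand, and the way RNA was selected are not given in the sources used here. Genes were annotated with GENCODE 29, which held 57055 of the 60675 IDs and 99.93% of the counts. Counts pile up at multiples of 4 at low values, so a variant with counts divided by 4 was run.

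Genes were filtered with edgeR's filterByExpr, scaled by TMM and tested with edgeR 4.0.16 (glmQLFit, glmQLFTest, R 4.3.3) on the 6 libraries, with Benjamini-Hochberg adjustment over 19279 genes, a threshold of 0.05 and 4 residual degrees of freedom. Differences between effects were fitted in models of 12 libraries. DESeq2 1.42.0, limma 3.58.1 (voom), other scalings, other filters, a stricter threshold, a replicate term and each library left out were the alternatives. The direct fits between groups were chosen after seeing the data. The steps were tested on simulated data.

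Named genes were MDM2, MDM4, TP73 and CDKN1A, the 12 largest called changes each way above 1 CPM and the 10 above 30 CPM among protein-coding genes whose groups and exons do not overlap others, the 4 called members of smallest adjusted p in each list, and the 4 largest called differences each way. Other list members are named for their role, whether called or not. CSF1, LIF, ZEB1, CCNB2, CENPA, CASP8 and the long genes that rose were named with their values in view. The members and lists were chosen with earlier results of these data known. Promoter sequences are from RefSeq on GRCh38.p14. A few genes and 1 gene list were left out of the text.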

Additional observations from a re-analysis of the deposited data

Results flagged for a closer look

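Some effects of the PROTAC differed between MDA-MB-231 and MDA-MB-436 by edgeR's quasi-likelihood test of the difference, with 3 libraries a group and Benjamini-Hochberg adjustment. MDM2 itself had a log2 change of 0.27 in the former line and -0.61 in the latter, a difference of 0.88 (adjusted p = 0.0309). TP73 had 0.21 and 1.84, a difference of -1.63 (adjusted p = 0.00249), and CDKN1A 1.36 and 2.63, a difference of -1.27 (adjusted p = 0.00233). MAFF had 0.71 and 3.0, a difference of -2.28 (adjusted p = 3.21e-05), and it also differed from the MDM2 shRNA effect within MDA-MB-231, by -1.46 (adjusted p = 0.0117).

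Among the largest called differences between the lines, most lay in genes that changed mainly in MDA-MB-436. More positive in MDA-MB-231 were PRKG2, by 7.56 ± 1.06 (SE, adjusted p = 0.0013), ITM2A by 5.16 ± 1.42 (0.0328) and C9orf84 by 4.19 ± 0.79 (0.00371). The more negative were CD96, with a difference of -8.41 ± 1.85 (adjusted p = 0.0125), CNTN5 with -7.71 ± 0.83 (0.000315), SPTLC3 with -7.1 ± 1.85 (0.0268) and FAM50B with -7.0 ± 1.18 (0.00344). Levels in MDA-MB-436 are not given here, so whether these sizes rest on few counts is not shown. C9orf84, a meiosis gene, and CNTN5, an adhesion molecule, had opposite log2 changes in the lines, 1.85 and -2.33 for the former and -2.08 and 5.62 for the latter.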

How the results depend on the processing

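The counts of genes called against DMSO, 1995 higher and 2141 lower, stayed within 1.5 times under other scalings, other filters on low counts, protein-coding genes alone, DESeq2, limma voom, all 12 MDA-MB-231 libraries, robust estimation and counts divided by 4. Without genes with overlapping exons they were 1182 and 1188, where fewer genes are tested, and at an adjusted p under 0.01 they were 836 and 1103. With 1 library left out they were 1248 to 1466 higher and 1517 to 1706 lower, the lowest counts being those without PROTAC replicate 2, and 1274 were higher without PROTAC replicate 1. The difference from the MDM2 shRNA effect, called for 1 gene, was called for 38 by DESeq2 and for 0 to 6 with 1 library left out; the cause was not tested. The difference from MDA-MB-436, called for 4242 genes, was called for 3076 to 5816 over its alternatives. The median log2 change of genes over 300 kb lay between -0.64 and -0.78. CASP2 changed sign: its log2 change of -0.42 ran from -0.74 to 0.48 with 1 library left out, the last without DMSO replicate 1.

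Libraries of the same replicate number did not deviate together, with correlations of -0.009, -0.013 and -0.048. The counts thus gave no sign of pairing by number, which does not show how the samples were handled. With the replicate block, 1314 genes were called higher and 1516 lower.

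Depth covers counting error only, and 3 libraries a group set the precision. Dose, time and protein levels were not analysed here.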
